A study of Mus musculus with 2 samples.

Results

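Smooth muscle nuclei of the mouse colon were described from single-nucleus RNA-seq of 2 libraries, 1 from Pink1 KO mice and 1 from WT mice. Pink1 encodes a mitochondrial kinase with which cells tag failing mitochondria for breakdown. Each library pooled sorted nuclei from the colons of 3 male C57BL/6 mice aged 15 weeks. No treatment is given for either genotype, and the labels do not say which part of Pink1 was deleted. The Pink1 KO library carries batch label 2 and the WT library batch label 1, so genotype, library and batch cannot be told apart. With 1 library per genotype there was no test between genotypes, and every interval below covers counting error only.

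A barcode was kept with 500 or more UMIs (unique molecular identifiers, each standing for 1 captured transcript) from 300 or more genes, of which mitochondrial transcripts made up no more than 10%. It was a smooth muscle nucleus if it held at least 5 UMIs from at least 3 of the 9 muscle genes Myh11, Acta2, Tagln, Cnn1, Des, Synpo2, Actg2, Lmod1 and Mylk. Muc2, the goblet cell mucin, had to stay under 0.5% of its UMIs. At most 1 UMI was allowed over the fibroblast genes Pdgfra, Dcn and Lum, at most 1 over Kit and Ano1 of the interstitial cells of Cajal, and 0 over the endothelial gene Pecam1 and the macrophage gene Csf1r. This gave 392 members of 12146 kept barcodes in the Pink1 KO library and 177 of 8888 in the WT library, or 569 of 21034 in all. The levels of these genes chose the members, and they are given as a description.

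Smooth muscle of the gut wall contracts when calcium, let in by voltage-gated channels and released from internal stores, drives phosphorylation of the myosin light chain by the kinase Mylk. Further kinases sustain the contraction by restraining the opposing phosphatase. Serum response factor with its partner myocardin switches on the contractile genes. In the colon the outer muscle coats propel the contents, a thin muscle layer underlies the mucosa, and vessels carry muscle of their own.

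Members had a median of 1577.5 UMIs and 810 detected genes in the Pink1 KO library and 1565 UMIs and 811 genes in the WT library, with 709623 and 337922 UMIs in sum. The median number of UMIs over the 9 genes was 14 in Pink1 KO and 11 in WT members. At the threshold, 21 Pink1 KO and 22 WT members held exactly 5 such UMIs, while 29 Pink1 KO and 20 WT nuclei with 4 stayed outside. The 2 files shared 28 barcode sequences, and 0 of these were members in both libraries. Fibroblast nuclei (208 Pink1 KO, 119 WT), interstitial cells of Cajal (86 Pink1 KO, 43 WT) and epithelial nuclei (5007 Pink1 KO, 2298 WT), each chosen by its own marker genes, served for comparison. Levels are CPM, a gene's counts per 1000000 UMIs of nuclear-encoded genes, summed over the nuclei of a group.

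Each of the 5 genes that mark smooth muscle in this colon stood far above its level in the other groups, in both libraries. Myh11, the smooth muscle myosin heavy chain, had 4218 CPM in Pink1 KO and 3671 CPM in WT members, against 24.0 and 20.8 CPM in Pink1 KO and WT epithelial nuclei. Des, the intermediate filament desmin, had 775 CPM in Pink1 KO and 719 CPM in WT members, and Synpo2, an actin-bundling protein of the Z-disc, 901 and 888 CPM. Actg2, the enteric gamma actin, had 470 CPM in Pink1 KO and 532 CPM in WT members, and Lmod1, a leiomodin that nucleates actin filaments, 347 and 282 CPM. After thinning each nucleus to 500 UMIs, 75.3% of Pink1 KO and 68.4% of WT members held a Myh11 UMI, against 0.859% of Pink1 KO and 0.740% of WT epithelial nuclei, a cell type that should lack the gene. Unthinned, the shares were 93.4% and 95.5% of members and 3.26% and 3.0% of epithelial nuclei, whose median depths were 1933 and 2404.5 UMIs.

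**Figure D1:**
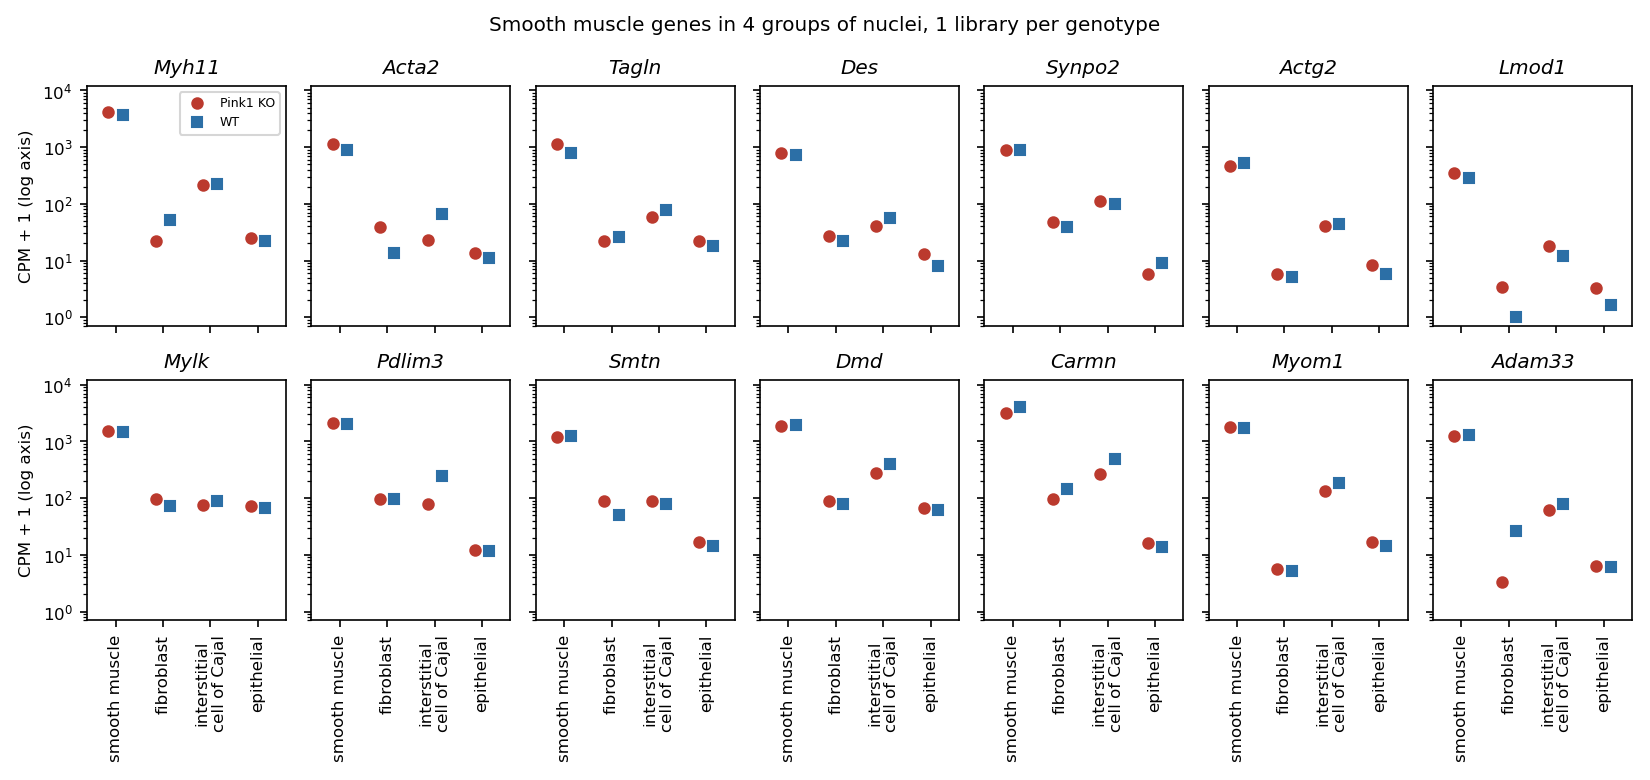
Levels of 14 muscle genes (CPM + 1, log axis) in smooth muscle, fibroblast, interstitial cell of Cajal and epithelial nuclei, with 1 point for the Pink1 KO library (circles) and 1 for the WT library (squares). In smooth muscle nuclei the points of the libraries lie close together, for instance 1512 CPM in Pink1 KO and 1452 CPM in WT for Mylk, and each lies above the other 3 groups.

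Of the 15 genes that most separated members from all other kept nuclei, 5 belonged to the rule (Myh11, Synpo2, Lmod1, Acta2 and Actg2). The other 10 were not used by it. Carmn, a long noncoding RNA that promotes the contractile state, had 3232 CPM in Pink1 KO and 4084 CPM in WT members, which was 59.6-fold (55.5 to 64.0) and 64.2-fold (59.2 to 69.7) its level in the other nuclei of the same library. Adam33, a membrane metalloprotease, had 1244 and 1280 CPM, Myom1, a myomesin of the sarcomere M-band, 1802 and 1746 CPM, and Pdlim3, an actinin-binding protein, 2117 and 1996 CPM in Pink1 KO and WT members. Chrm2, the muscarinic receptor M2, had 84.7 CPM in Pink1 KO and 89.1 CPM in WT members, against 0.982 and 1.15 CPM in other nuclei. Rims1, Atcayos, Slc6a17, Bves and Sntg2 completed the set, and the lowest fold among the 15 was 44.9, of Actg2 in the Pink1 KO library. Atcayos is an antisense transcript, and its value is uncertain because the use of strand in counting is not stated.

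Members shared some RNA with other cell types. Epithelial markers summed to 1392 CPM in Pink1 KO and 1868 CPM in WT members, a ratio of 0.745 (0.674 to 0.825), with Muc2 UMIs in 42.9% of Pink1 KO and 56.5% of WT members (17.1% and 19.2% at 500 UMIs). Fibroblast markers summed to 1353 CPM in Pink1 KO and 1586 CPM in WT members. Vascular mural markers summed to 762 CPM in Pink1 KO and 633 CPM in WT members. At least 2 mural UMIs lay in 32.4% of Pink1 KO and 32.2% of WT members, led by Mcam, Abcc9, Rgs5 and Cspg4, of which some also occur in visceral muscle. Higd1b, Ndufa4l2 and Heyl, markers of pericytes and vascular muscle, were at 0 in both libraries, which allows up to 4.24 CPM in Pink1 KO and 8.91 CPM in WT members at 3 counts, and Notch3 had 10 Pink1 KO counts and 0 WT counts. Muscle of the gut wall and of vessels was not separated by the rule. Endothelial markers summed to 50.8 CPM in Pink1 KO and 17.8 CPM in WT members, enteric glia markers to 33.9 and 47.5 CPM, enteric neuron markers to 16.9 and 35.6 CPM and leukocyte markers to 24.0 and 74.2 CPM.

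The first comparison was of the number of muscle nuclei. Members made up 3.23% (2.92 to 3.56) of kept Pink1 KO nuclei and 1.99% (1.71 to 2.30) of kept WT nuclei, a ratio of 1.62 (1.35 to 1.95). Fibroblast nuclei had a ratio of 1.28 (1.02 to 1.62) and interstitial cells of Cajal one of 1.46 (1.00 to 2.16), chosen by rules of the same form. Epithelial nuclei also took a larger share in the Pink1 KO library, 5007 of 12146 kept nuclei against 2298 of 8888 in WT. There were 1.88 muscle nuclei per fibroblast nucleus in the Pink1 KO and 1.49 in the WT library, a ratio of 1.27. Per interstitial cell of Cajal there were 4.56 and 4.12, a ratio of 1.11. The muscle ratio was 2.04 with a stricter rule (10 UMIs from 4 of the 9 genes) and 2.13 among members without a Muc2 UMI. Dissection, isolation and sorting also set such shares, and their part in this ratio was not tested.

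The members fell into 5 clusters, formed without the 9 rule genes and without a list of immediate early genes. Each cluster held nuclei of both libraries, with Pink1 KO shares from 62.7% to 73.6% of its nuclei. The genes below define the clusters and are a description, chosen among genes with a UMI in at least 10% of a cluster's nuclei, a minimum set after the data were seen.

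Cluster 1 (102 Pink1 KO and 45 WT nuclei) was led by Epha7, an ephrin receptor found in 61.9% of its nuclei and 4.5% of the other members, and by Cacna1e, the pore of the R-type calcium channel, in 58.5% and 5.69%. Rgs1, a brake on G-protein signals, had 1245 CPM in it and 262 CPM in the other members, and Actn2, the sarcomeric alpha-actinin, 75.8 and 7.95 CPM. Its Myh11 level, 7081 CPM, was the highest of the 5 clusters. Pln, the inhibitor of the calcium pump of internal stores, had 75.8 CPM here and at most 28.1 CPM in any other cluster.

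Cluster 4 (42 Pink1 KO and 25 WT nuclei) was led by Tex15, Tnnt2 (cardiac troponin T, in 20.9% of its nuclei and 0.996% of the others) and Brinp2. It also held the most of several contractile and receptor transcripts. Actg2 had 1214 CPM here and 193 to 527 CPM in the other clusters, Des 1656 CPM against 150 to 1062 CPM, and Cnn1, the actin-binding protein calponin, 1018 CPM against 158 to 310 CPM. Chrm2 had 281 CPM here and at most 86.2 CPM elsewhere. Fn1, the matrix protein fibronectin, had 2225 CPM in it and 596 CPM in other members, and Itga5, the alpha chain of the fibronectin receptor, 849 and 183 CPM.

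Cluster 3 (81 Pink1 KO and 29 WT nuclei) was led by Nrg1, a neuregulin, and by Hhip, a hedgehog-binding inhibitor found in 80% of its nuclei and 9.15% of the others, at 2214 and 68.5 CPM. Bdkrb2, the bradykinin B2 receptor, was found in 20.9% and 0.871% and F2r, a thrombin receptor, in 22.7% and 1.53%. It held the least Des (150 CPM), Cacna1c (158 CPM, against 282 to 667 CPM in the others) and Ryr2 (14.3 CPM, against 183 to 653 CPM), the genes of the main voltage-gated calcium channel and of a calcium release channel. Its Lmod1 level, 566 CPM, was the highest of the 5. Its median depth, 1067 UMIs in Pink1 KO and 1189 in WT nuclei, was the lowest.

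Cluster 2 (121 Pink1 KO and 57 WT nuclei) was led by Adora1, the adenosine A1 receptor, and by Fap and Enpp2. Fap encodes a protease of activated fibroblasts and Enpp2 the lysophosphatidic acid-making enzyme autotaxin. Grem1, a secreted BMP antagonist, had 362 CPM in it against 7.16 to 133 CPM in the other clusters. Lepr, the leptin receptor, was found in 15.7% and 3.07%. The stimulus-responsive genes Nr4a1, Ccn1, Klf2 and Errfi1 were also among its 12 leading genes.

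Cluster 0 (46 Pink1 KO and 21 WT nuclei) was led by the epithelial genes Hsd3b3, Aqp4, Cftr, Pigr and Slc26a3. Epithelial markers summed to 4204 CPM in it and to 748 to 1175 CPM in the other clusters. It held the fewest rule gene transcripts (5602 CPM), had median depths of 3211 and 2975 UMIs in Pink1 KO and WT nuclei, and 77.6% of its nuclei were among the highest doublet scores, against 1.49% to 6.36% in the other clusters. It stays in the counts below, and the values without it are given where they matter.

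**Figure D2:**
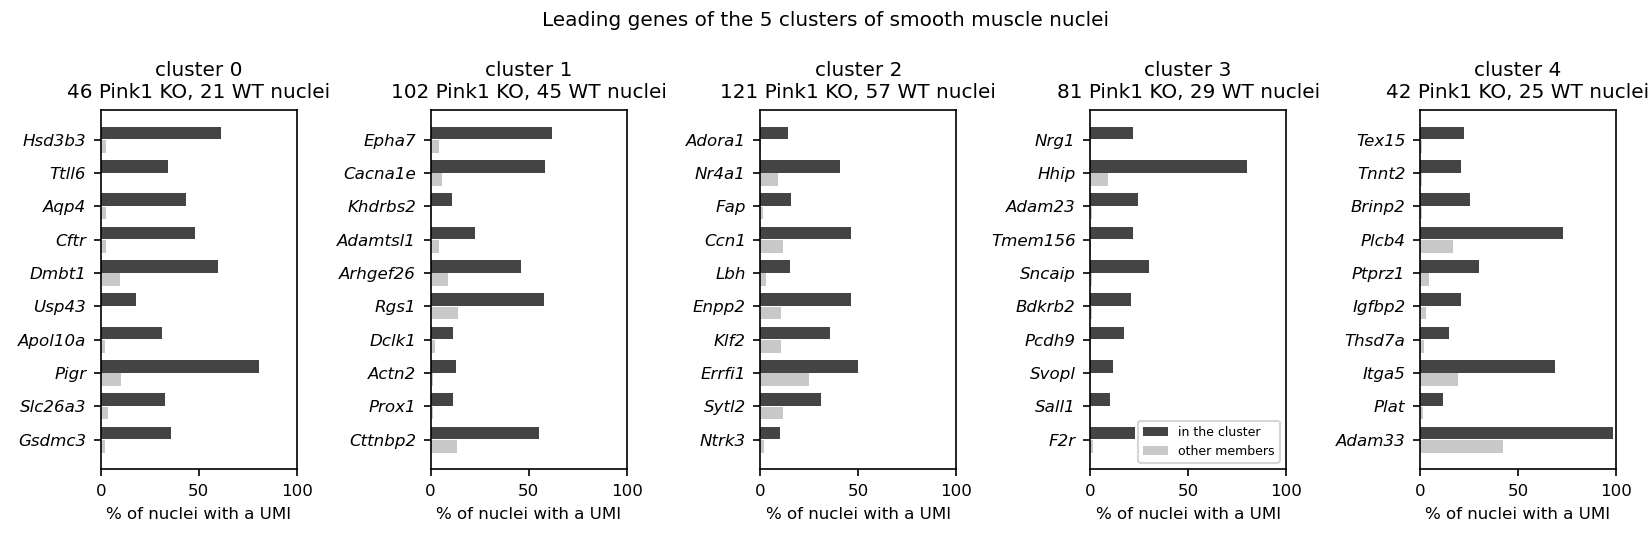
10 of the leading genes of each cluster of smooth muscle nuclei, with the percentage of nuclei that held at least 1 UMI of the gene in the cluster (dark bars) and among the other members (light bars). Hhip was found in 80% of cluster 3, Epha7 in 61.9% of cluster 1 and Plcb4 in 73.1% of cluster 4.

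The second comparison was of gene levels between the libraries, as the ratio of Pink1 KO over WT CPM. Among 3557 genes with at least 50 counts in members, 317 were at least 1.5-fold higher in Pink1 KO (8.91%) and 230 at least 1.5-fold lower (6.47%). Lists of genes were read at a minimum of 20 counts, where 13.9% of 7125 genes were that much higher, 11.9% that much lower, and the median log2 ratio was -0.001. These shares are the background for every count of members of a list. The minimum counts are summed over both libraries, and the lists were chosen with earlier results of these data known.

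Contractile genes outside the rule differed by less than 1.5-fold between the libraries. Of 24 measured, 0 were 1.5-fold higher and 0 lower, with a median log2 ratio of -0.01. The intervals of 4 lay above 1 and those of 2 below 1. Of all genes 13.9% were that much higher and 11.9% lower, but these shares depend on the minimum count. At a minimum of 50 counts they were 8.91% and 6.47%, and at 100 counts 3.31% were lower. Smtn, which encodes smoothelin, had 850 Pink1 KO and 418 WT counts (1200 and 1241 CPM), a ratio of 0.967 (0.859 to 1.09). Tpm1, a tropomyosin of the thin filament, had 3821 CPM in Pink1 KO and 4179 CPM in WT, and Cald1, the caldesmon gene, 1461 and 1375 CPM. The widest departures were Pdlim5 at 1.45 (0.998 to 2.15) and Cnn3 at 0.781 (0.385 to 1.64). Among the rule genes, whose levels chose the members, Tagln had a ratio of 1.40 (1.21 to 1.61), Acta2 one of 1.32 (1.16 to 1.51) and Cnn1 one of 0.742 (0.601 to 0.920).

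The machinery that sets calcium sensitivity was mostly even, with 3 of 21 genes higher and 2 lower, against 13.9% and 11.9% of all genes. Rgs2, which curbs contraction by shutting off Gq signals, had 155 Pink1 KO and 20 WT counts (219 and 59.4 CPM), a ratio of 3.68 (2.31 to 6.20). In clusters 1, 3 and 4 its ratios were 4.32 (2.18 to 9.76), 2.63 (0.898 to 10.5) and 3.84 (0.838 to 35.7), cluster 0 had 1.17 (0.397 to 4.14), and cluster 2 had 16 Pink1 KO counts and 0 WT counts. With nuclei thinned to 500 UMIs the Rgs2 ratio over all members was 10.6. Dapk3, a kinase of the myosin phosphatase, had 27 Pink1 KO and 3 WT counts, a ratio of 4.28 (1.32 to 22.0), and 2.06 without members that held mural UMIs. Rhoa, a GTPase that raises calcium sensitivity, had a ratio of 1.52 (1.06 to 2.23), which was 1.14 with the stricter rule. Rnd3, an atypical GTPase that opposes it, had one of 0.557 (0.330 to 0.948), which was 0.776 with the looser rule (3 UMIs from 2 genes). Rock1 and Rock2, kinases that restrain the myosin phosphatase, had 374 and 891 CPM in Pink1 KO members, against 362 and 808 CPM in WT members. Ppp1r12b, a targeting subunit of the phosphatase, had a ratio of 1.27 (1.14 to 1.42).

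Calcium channels and pumps likewise lay close to 1, with 2 of 25 genes higher and 0 lower, against 13.9% and 11.9% of all genes. Cacna1c had 463 CPM in Pink1 KO and 428 CPM in WT members, a ratio of 1.08 (0.888 to 1.33), and Ryr2 376 and 440 CPM. Kcnma1, the large-conductance potassium channel, had 364 CPM in Pink1 KO and 339 CPM in WT. The higher genes rested on few counts, Pln with 27 Pink1 KO and 5 WT and Kcnj8 with 26 and 8. The Kcnj8 ratio of 1.55 was 0.930 among members without a Muc2 UMI. Of 24 receptor and cyclic nucleotide genes 2 were higher and 2 lower, against the same 13.9% and 11.9% of all genes. Chrm2 had a ratio of 0.951 (0.604 to 1.53), Chrm3 one of 0.917 (0.464 to 1.89) and Prkg1, the cGMP-dependent kinase of relaxation, one of 0.938 (0.619 to 1.44). Plcb4, a phospholipase that relays muscarinic signals, had 225 CPM in Pink1 KO and 336 CPM in WT, a ratio of 0.669 (0.522 to 0.859).

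Of 28 measured transcription regulators of the muscle state, 5 were at least 1.5-fold lower and 3 higher, against 11.9% and 13.9% of all genes. Their median log2 ratio was -0.08. The intervals of 6 lay below 1 and those of 0 above 1. Zbtb16, a zinc finger repressor that glucocorticoids induce, had 120 counts in each library, or 169 CPM in Pink1 KO and 356 CPM in WT, a ratio of 0.475 (0.366 to 0.617). It was found in 22.4% of Pink1 KO and 44.1% of WT members, and its ratio lay between 0.418 and 0.547 under every alternative. By cluster its ratio ran from 0.365 in cluster 0 to 0.653 in cluster 3, below 1 in each of the 5, and it was 0.384 (0.267 to 0.547) in fibroblast nuclei.

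Pbx3, a homeodomain partner of Hox and Meis factors, had 265 CPM in Pink1 KO and 448 CPM in WT members, a ratio of 0.592 (0.475 to 0.738). Cluster 2 had the lowest Pbx3 ratio, 0.417 (0.280 to 0.620), and it was 0.733 (0.509 to 1.07) in cluster 1 and 0.973 (0.479 to 2.10) in cluster 0. Tcf21 had 17 Pink1 KO and 24 WT counts and Nkx2-3, a homeobox factor of gut mesenchyme, 23 and 26, with ratios of 0.337 (0.170 to 0.654) and 0.421 (0.229 to 0.767). Nkx2-3 stood at 0.868 among members without a Muc2 UMI. Mrtfa, a cofactor of serum response factor, had 11 Pink1 KO and 9 WT counts. Myocd, which encodes myocardin, had 97.4 CPM in Pink1 KO and 110 CPM in WT members, a ratio of 0.887 (0.586 to 1.36). Meis2 and Foxp1 lay at 0.951 (0.799 to 1.14) and 0.906 (0.779 to 1.06).

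Of 35 measured genes of the dystrophin complex, integrins and focal adhesions, 4 were higher and 1 lower, against 13.9% and 11.9% of all genes. Cavin2, a coat protein of caveolae, had 164 Pink1 KO and 36 WT counts (232 and 107 CPM), a ratio of 2.17 (1.5 to 3.20), and its ratio was above 1.5 in all 5 clusters, from 1.76 to 5.00. With nuclei thinned to 500 UMIs it was 1.29. Itga5 had a ratio of 1.65 (1.24 to 2.21), which was 1.18 among members without a Muc2 UMI. Parva, a focal adhesion protein, had one of 1.80 (1.07 to 3.16), and 1.25 among members without a Muc2 UMI. Dmd, the dystrophin gene, had 1888 CPM in Pink1 KO and 1936 CPM in WT members. Among 18 basement membrane and elastic fibre genes 2 were higher and 1 lower, and Col4a1 and Eln lay at 1.07 (0.817 to 1.42) and 0.927 (0.725 to 1.19).

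**Figure D3:**
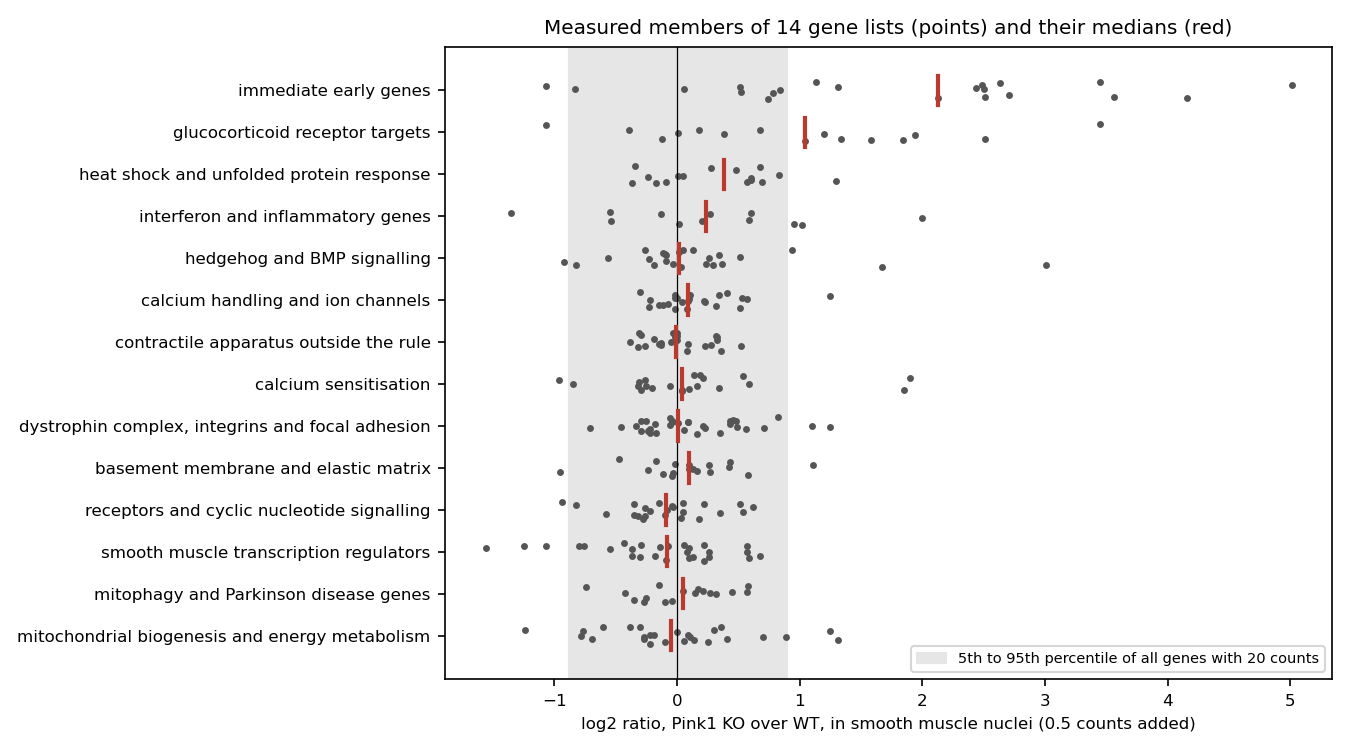
Log2 ratios of Pink1 KO over WT in smooth muscle nuclei, with 1 point per measured gene in 14 lists, a red bar at each list's median, and in grey the 5th to 95th percentile of all genes with at least 20 counts (-0.88 to 0.90). The immediate early genes have a median of 2.13 and the glucocorticoid targets one of 1.04, and the contractile genes lie inside the grey band.

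The largest differences lay in immediate early genes, the first transcripts that a stimulated cell makes without new protein. Of 21 measured, 16 were at least 1.5-fold higher in Pink1 KO members and 2 lower, against 13.9% and 11.9% of all genes. Their median log2 ratio was 2.13. The list was chosen with earlier results of these data known. Some of its genes reached the minimum of 20 counts almost only through the Pink1 KO library, such as Nr4a2 (34 Pink1 KO and 1 WT counts) and Fosb (19 and 1). Egr1, a zinc finger transcription factor (ENSMUSG00000038418, GRCm38 chromosome 18, 34859823 to 34864984), had 779 Pink1 KO and 11 WT counts (1100 and 32.7 CPM), a ratio of 33.7 (18.7 to 67.7). Nr4a1, an orphan nuclear receptor (chromosome 15, 101254269 to 101274795), had 282 Pink1 KO and 7 WT counts (398 and 20.8 CPM), a ratio of 19.2 (9.17 to 48.1). Junb, an AP-1 subunit, had a ratio of 12.6 (5.98 to 31.7) and Fos, its partner, one of 5.79 (3.53 to 10.1), which was 14.2 without cluster 0. The feedback genes Dusp1 (a phosphatase of MAP kinases), Zfp36 (which destabilises messenger RNA) and Btg2 had ratios of 5.83 (3.78 to 9.47), 6.83 (3.71 to 14) and 4.42 (3.24 to 6.15). Klf2, a flow-induced factor in vessels, had one of 5.85 (3.33 to 11.2). In WT members 1 nucleus held 31.1% of the Btg2 counts, and without it the ratio was 6.32 (4.38 to 9.42). Under the alternatives the ratios ran from 20.2 to 52.7 for Egr1, 10.2 to 26.0 for Nr4a1, 5.76 to 56.6 for Junb, 3.67 to 9.51 for Dusp1, 5.63 to 16.7 for Klf2 and 3.01 to 12.5 for Btg2, and the list's median log2 ratio was 1.38 under the looser rule and 1.51 under the stricter one.

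Not every gene of the list was higher. Klf4, a factor that represses contractile genes, had 121 CPM in Pink1 KO and 116 CPM in WT members, a ratio of 1.05 (0.710 to 1.57). Ccn1, a secreted matrix protein, had one of 1.44 (1.14 to 1.83), which was 0.873 with the stricter member rule and 2.91 without members with mural UMIs. Ccn2, known as connective tissue growth factor, had 64 Pink1 KO and 54 WT counts (90.4 and 160 CPM), a ratio of 0.563 (0.386 to 0.825), where fibroblast nuclei had 1.92 (1.57 to 2.37). Ccn2 lay between 0.685 and 0.705 with the looser rule, without mural UMIs and without Muc2 UMIs, short of 1.5-fold. Atf3, a stress-induced factor, had 17 counts in each library, a ratio of 0.475 (0.228 to 0.991), but 76.5% of the WT counts lay in 1 nucleus. Without that nucleus the Atf3 ratio was 1.99 (0.650 to 8.14). It was 0.857 with the looser rule and 0.982 as a mean of the nuclei's own CPM.

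Among the 12 highest genes, 4 were not in that list. Arl4d, a small GTPase (chromosome 11, 101665541 to 101667832), had 252 Pink1 KO and 7 WT counts (356 and 20.8 CPM), a ratio of 17.1 (8.19 to 43.0), which was 7.67 with thinned nuclei. Adamts1, a secreted protease of the matrix (chromosome 16, 85793827 to 85803113), had 566 CPM in Pink1 KO and 41.6 CPM in WT, a ratio of 13.6 (8.02 to 25.1), and one of 23.7 (11.9 to 55.2) without the WT nucleus that held 42.9% of the WT counts. Errfi1, a feedback inhibitor of the EGF receptor (chromosome 4, 150853919 to 150868892), had 730 and 65.3 CPM, a ratio of 11.2 (7.30 to 18.0). Id3, an inhibitor of basic helix-loop-helix factors, had 76 Pink1 KO and 4 WT counts, a ratio of 9.03 (3.39 to 34.0). The ratios reached 36.3 for Adamts1 with thinned nuclei, 18.4 for Errfi1 among members without a Muc2 UMI and 17.9 for Id3 as a mean of the nuclei's own CPM.

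Arl4d and Adamts1 were scarce in epithelium. After thinning to 500 UMIs, 18.1% (14.4 to 22.3) of Pink1 KO and 2.26% (0.619 to 5.68) of WT members held an Arl4d UMI, against 1.44% and 0.840% of fibroblast nuclei and 0.20% and 0.0870% of epithelial nuclei. Unthinned, 36.5% of Pink1 KO and 3.39% of WT members held one. Adamts1 was found at 500 UMIs in 21.7% (17.7 to 26.1) of Pink1 KO and 1.13% (0.137 to 4.02) of WT members, in 12% of Pink1 KO and 6.72% of WT fibroblast nuclei, and in 0.18% and 0.0435% of epithelial nuclei. Egr1 was found at that depth in 31.1% (26.6 to 36.0) of Pink1 KO and 1.69% (0.351 to 4.87) of WT members, and in 30.5% of Pink1 KO and 1.22% of WT epithelial nuclei. Fibroblast nuclei held it more widely, in 60.6% (53.6 to 67.3) of Pink1 KO and 6.72% (2.95 to 12.8) of WT nuclei.

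**Figure D4:**
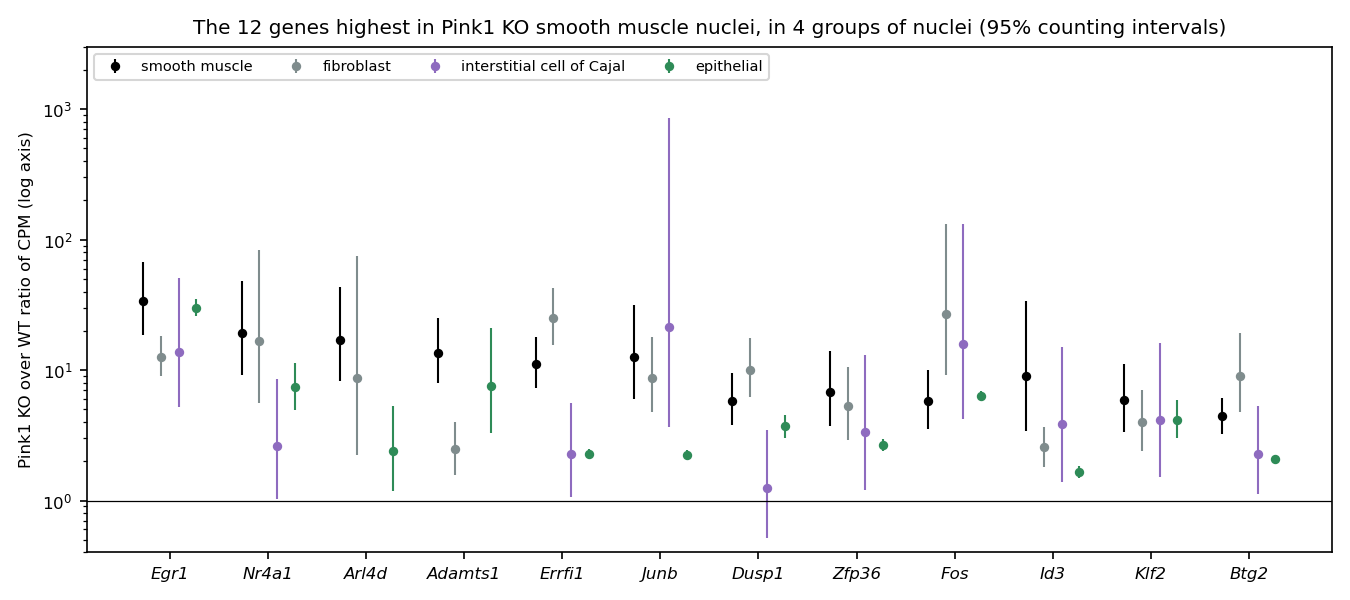
Ratio of Pink1 KO over WT CPM (log axis) with 95% counting intervals for the 12 highest genes in smooth muscle nuclei, in smooth muscle (black), fibroblast (grey), interstitial cell of Cajal (purple) and epithelial nuclei (green). Ratios against a WT level of 0 are not drawn. The Adamts1 interval of smooth muscle nuclei (8.02 to 25.1) lies above that of fibroblast nuclei (1.57 to 4.03), and for Errfi1 the intervals overlap (7.30 to 18.0 and 15.7 to 42.3).

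The bases before the start site of 4 genes that hold a cyclic AMP response element or a CArG box are given below. They come from RefSeq windows on GRCm38.p6, with the element in capitals and each sequence read along the gene's strand. The cyclic AMP response element TGACGTCA, bound by CREB, lay in the windows of 4 of the 11 highest genes that had one (Arl4d, Btg2, Dusp1 and Errfi1). It lay in 3 of the 23 immediate early genes with a window, in 2 of 23 contractile genes (Myl6 and Pdlim3) and in 2.03% of all 27025 genes with one. The CArG box, bound by serum response factor, lay in Zfp36 alone of those 11 genes and in 4 of 23 contractile genes (Cnn2, Ldb3, Myl6 and Myl9). It also lay in 2 of 23 immediate early genes, in 0 of the 6 rule genes with a window and in 1.81% of all genes. The AP-1 site TGANTCA was found in 0 of the 11 genes and in 8.97% of all genes, and the palindromic glucocorticoid response element in Sgk1 of 14 glucocorticoid targets and in 0.0111% of all. Windows ran from 250 bases before to 50 after the start site, each element reads the same on both strands, none contains another, and a match is a string of letters, not a measured site. A gene counted as holding an element if any of its windows did. Errfi1 has 2 windows, and the one printed was picked because it holds the element. It lies before a start site inside the gene span given above. Arl4d is at chr11:101665291-101665540 (plus strand), Errfi1 at chr4:150854820-150855069 (plus), Zfp36 at chr7:28379229-28379478 (minus) and Myl9, the regulatory myosin light chain, at chr2:156775214-156775463 (plus).
Arl4d: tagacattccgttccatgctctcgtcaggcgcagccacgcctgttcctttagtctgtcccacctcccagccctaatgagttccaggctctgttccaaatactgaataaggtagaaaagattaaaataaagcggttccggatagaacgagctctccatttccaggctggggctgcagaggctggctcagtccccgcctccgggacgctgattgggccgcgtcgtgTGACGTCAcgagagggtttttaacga
Errfi1: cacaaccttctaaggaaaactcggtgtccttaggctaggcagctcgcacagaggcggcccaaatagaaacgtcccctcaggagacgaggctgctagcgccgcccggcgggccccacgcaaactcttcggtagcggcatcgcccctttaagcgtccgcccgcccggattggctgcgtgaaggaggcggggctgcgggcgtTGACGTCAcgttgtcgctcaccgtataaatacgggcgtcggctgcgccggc
Zfp36: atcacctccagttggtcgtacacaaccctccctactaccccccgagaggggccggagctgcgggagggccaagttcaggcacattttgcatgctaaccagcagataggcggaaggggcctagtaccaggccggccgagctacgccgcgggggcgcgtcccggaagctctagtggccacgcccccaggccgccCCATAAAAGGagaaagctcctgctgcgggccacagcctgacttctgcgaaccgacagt
Myl9: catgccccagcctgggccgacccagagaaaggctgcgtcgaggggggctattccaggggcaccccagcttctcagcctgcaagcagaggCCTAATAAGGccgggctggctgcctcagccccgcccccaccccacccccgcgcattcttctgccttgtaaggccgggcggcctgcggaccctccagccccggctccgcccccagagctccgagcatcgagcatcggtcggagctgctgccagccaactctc

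The immediate early ratios took different values in the muscle clusters. Egr1 had 2658 CPM in Pink1 KO and 59.0 CPM in WT nuclei of cluster 2, a ratio of 45.0 (19.2 to 139), against 340 and 34.5 CPM and a ratio of 9.84 (3.23 to 48.9) in cluster 1. In cluster 3 it had 52 Pink1 KO counts and 0 WT counts, with a lower interval bound of 6.22 for the ratio. In cluster 4, which held the most Actg2 and Des, there were 8 Pink1 KO counts and 1 WT count, a ratio of 5.59 (0.749 to 248). Errfi1 had ratios of 41.3 (16.0 to 152) in cluster 2, 5.56 (1.39 to 48.3) in cluster 1 and 2.62 (1.17 to 6.61) in cluster 4.

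Btg2, which slows the cell cycle, had 1555 CPM in Pink1 KO and 59.0 CPM in WT nuclei of cluster 2, a ratio of 26.3 (11.2 to 81.8). In cluster 4 it had 429 CPM in Pink1 KO and 461 CPM in WT nuclei, a ratio of 0.931 (0.550 to 1.59), where 1 nucleus held 14 of the 27 WT counts. Without that nucleus the cluster 4 ratio was 1.78 (0.920 to 3.65). Junb had 46.0 (8.06 to 1836) and 1.16 (0.226 to 7.49) in these clusters. For Arl4d, cluster 2 gave 46.5 (8.15 to 1855), from 96 Pink1 KO counts and 1 WT count. Cluster 4 gave 15.0 (3.91 to 128), with 513 CPM in Pink1 KO and 34.1 CPM in WT nuclei, and cluster 1 gave 8.66 (3.25 to 32.5). WT nuclei of clusters 0 and 3 held 0 Arl4d counts. The difference in ratio between clusters was not tested. Adamts1 had 877 CPM in Pink1 KO and 22.8 CPM in WT nuclei of cluster 3, from 84 counts and 1 count.

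Cluster 2 was formed in part by Errfi1 and other genes that differed between the libraries. The members were therefore clustered again without the 819 genes whose ratio had an interval that left out 1. Cluster 4 was then the main source of no new cluster, and a cluster of 12 nuclei led by Chgb, Olfr560 and Chga appeared. The cluster led by Adora1, Nr4a1, Fap, Lepr and Ccn1 held 112 Pink1 KO and 52 WT nuclei, of which 95.7% came from cluster 2. Its ratios were 57.1 (22.1 to 210) for Egr1 and 31.5 (12.1 to 116) for Btg2. In the cluster led by Epha7, with 149 Pink1 KO and 68 WT nuclei, of which 65.4% came from cluster 1, they were 37.8 (6.60 to 1510) and 1.02 (0.672 to 1.59). The Egr1 value there came from 85 Pink1 KO counts and 1 WT count. In the first clustering the Egr1 ratios of clusters 2 and 1 were 45.0 and 9.84. The WT nucleus with 14 Btg2 counts lay in the Epha7-led cluster, and without it the Btg2 ratio was 1.71 (1.03 to 3.0).

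Nuclei were also counted by how many different genes of the list they held, and whether the genes occurred together more than by chance was not tested. At 500 UMIs, 34.7% of Pink1 KO and 3.39% of WT members held at least 3 different immediate early genes, and 26.3% of Pink1 KO and 60.5% of WT members held 0. Unthinned, 60.2% of Pink1 KO and 23.7% of WT members held at least 3. In fibroblast nuclei the thinned shares with at least 3 were 62.0% in Pink1 KO and 5.04% in WT, and in epithelial nuclei 28.6% and 8.09%. Muscle stood between them in the Pink1 KO library, with more nuclei at 0 than either (8.17% of fibroblast and 16.4% of epithelial Pink1 KO nuclei).

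**Figure D5:**
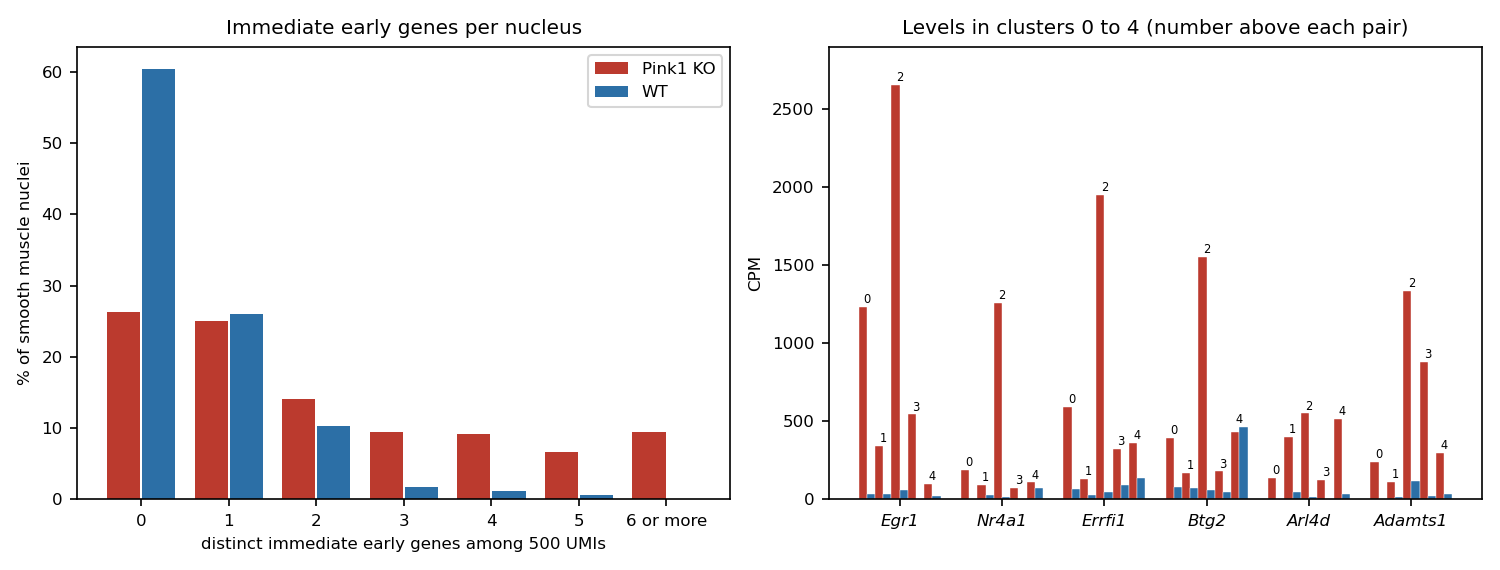
Left, the percentage of smooth muscle nuclei by the number of different immediate early genes among 500 UMIs, for Pink1 KO (red) and WT (blue). Right, CPM of 6 genes in clusters 0 to 4, with Pink1 KO (red) left of WT (blue) and the cluster number above each pair. Of Pink1 KO nuclei 9.44% held 6 or more of the genes, against 0 WT nuclei. Cluster 2 has the highest Pink1 KO level of each of the 6 genes, for Arl4d at 549 CPM against 513 CPM in cluster 4.

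Targets of the glucocorticoid receptor, the sensor of adrenal stress hormones, were also mostly higher, and 2 of them (Errfi1 and Dusp1) are given above. Of 15 measured, 9 were at least 1.5-fold higher and 1, Zbtb16, lower, against 13.9% and 11.9% of all genes, with a median log2 ratio of 1.04. Tsc22d3, an anti-inflammatory leucine zipper protein, had 60 Pink1 KO and 7 WT counts, a ratio of 4.07 (1.86 to 10.6). Under the alternatives the Tsc22d3 ratio ran from 3.12 to 8.51, the latter without cluster 0. Sgk1, a kinase that controls ion transport, had 97 Pink1 KO and 15 WT counts, a ratio of 3.07 (1.77 to 5.70). Its ratio ran from 2.19 to 10.6 under the alternatives, the latter without cluster 0. Glul, the glutamine synthetase, had 124 Pink1 KO and 16 WT counts (175 and 47.5 CPM). Its ratio was 3.68 (2.18 to 6.65) over all members, 7.78 without cluster 0 and 2.26 with thinned nuclei. Fkbp5 had one of 1.32 (0.857 to 2.07), and Nr3c1, the receptor itself, 0.931 (0.558 to 1.59). Of 12 clock genes 1 was higher and 3 lower, against 13.9% and 11.9% of all genes. Per1 was the higher one at 2.38 (1.27 to 4.85). Per3, Nr1d1 and Nr1d2 were lower at 0.513 (0.287 to 0.922), 0.494 (0.274 to 0.893) and 0.619 (0.444 to 0.867). With thinned nuclei Per1 had 1.44, Per3 0.752 and Nr1d2 1.10.

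Among 24 hedgehog and BMP genes 3 were higher, the BMP-induced genes Id1, Id2 and Id3, and 2 lower, against 13.9% and 11.9% of all genes. Id1 had a ratio of 1.94 (1.21 to 3.26) and Id2 one of 3.33 (1.71 to 7.24), which ran to 3.28 and 5.26 with the stricter rule. The lowest values under the alternatives were 1.84 for Id1 and, without members with mural UMIs, 2.17 for Id2. The ligand Bmp4, the antagonist Grem1 and the hedgehog genes Gli1 and Ptch1 lay at 0.989 (0.660 to 1.51), 1.10 (0.767 to 1.60), 0.951 (0.571 to 1.62) and 0.839 (0.675 to 1.05). Of 12 inflammatory genes 5 were higher and 1 lower, against 13.9% and 11.9% of all genes, and 2 had intervals above 1. Ptgs1, the constitutive cyclooxygenase, had 219 Pink1 KO and 51 WT counts (309 and 151 CPM), a ratio of 2.04 (1.5 to 2.83), and 1.23 with thinned nuclei. Its ratio was 2.33 (1.47 to 3.86) in cluster 1 and 1.18 (0.670 to 2.18) in cluster 2. Ptgs2, the inducible form, had 29 Pink1 KO and 3 WT counts, a ratio of 4.60 (1.42 to 23.6), which ran from 2.23 to 10.5 under the alternatives and was 3.18 (0.943 to 16.7) without the nucleus that held 31.0% of its Pink1 KO counts. Of 16 heat shock genes 6 were higher and 0 lower, against 13.9% and 11.9% of all genes. Their median log2 ratio was 0.38, and 3 had intervals above 1. Hspb1 was among them at 1.81 (1.09 to 3.12). It was 1.40 with the stricter rule and 2.74 (1.51 to 5.38) without the nucleus that held 35% of its WT counts.

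Nuclear-encoded genes of mitophagy and of mitochondrial energy metabolism had list medians near that of all genes. Transcripts encoded in mitochondria were left out of CPM. They made up a median of 0.118% of UMIs in Pink1 KO and 0.0787% in WT members, and 85.7% and 73.4% of members held one. Over all kept nuclei the medians were 0.154% and 0.0834%, and the cause was not tested. Pink1 itself had 1 Pink1 KO count and 4 WT counts in members, too few for a comparison. Of 17 measured mitophagy and Parkinson disease genes, 2 were higher and 1 lower, against 13.9% and 11.9% of all genes. Their median log2 ratio was 0.05. Dnm1l, which divides mitochondria, had 186 CPM in Pink1 KO and 148 CPM in WT, and Opa1, which fuses inner membranes, 73.4 and 65.3 CPM. Of 26 genes of mitochondrial biogenesis and energy metabolism, 4 were higher and 5 lower, against the same 13.9% and 11.9%. Their median log2 ratio was -0.05, and the intervals of 2 lay below 1 and those of 0 above 1. Cox5a, a subunit of complex IV, had a ratio of 0.423 (0.233 to 0.761), which was 0.764 with the looser rule. Ppargc1a, a master regulator of biogenesis, had 23 Pink1 KO and 10 WT counts, a ratio of 1.09 (0.501 to 2.57).

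Of the 12 lowest genes, Mptx1, Car2, Prdx6, Muc3, Lypd8 and Slc40a1 had more CPM in epithelial nuclei than in members in both libraries, and Saa1, Chgb and Rbbp8 in the Pink1 KO library only. Mptx1 had 15 Pink1 KO and 86 WT counts in members, a ratio of 0.0829 (0.0445 to 0.144), but 75.6% of the WT counts lay in 1 nucleus, and epithelial nuclei had 459 CPM in Pink1 KO and 442 CPM in WT. The Mptx1 ratio was 0.337 (0.162 to 0.685) without that nucleus, 0.605 among members with 0 Muc2 UMIs, 0.445 with the stricter barcode filter and 0.318 without members with epithelial UMIs. For the enteroendocrine granin Chgb, at 0.124 (0.0749 to 0.198), 1 nucleus held 96.6% of the WT counts, and for Rbbp8 55.8%. Without these nuclei the ratios were 3.58 (1.08 to 18.6) for Chgb and 0.817 (0.451 to 1.52) for Rbbp8. Saa1, Car2, Prdx6, Muc3, Lypd8 and Slc40a1 had ratios of 0.164 to 0.431 in members, and 133 to 899 CPM in Pink1 KO and 158 to 978 CPM in WT epithelial nuclei. Without cluster 0, Saa1, Prdx6 and Lypd8 had ratios of 0.786, 0.884 and 1.14. Without members with epithelial UMIs, Car2 and Slc40a1 had 0.551 and 0.573. Within epithelial nuclei Car2, Prdx6 and Slc40a1 had ratios of 0.611, 0.708 and 0.468, and Saa1, Muc3 and Lypd8 1.71, 1.07 and 1.43. The part of epithelial RNA in the ratios of members was not tested.

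The other lowest genes were Exoc2, Ptprz1 and Zbtb16. Ptprz1, a receptor tyrosine phosphatase that led cluster 4, had 66 Pink1 KO and 86 WT counts (93.2 and 255 CPM), a ratio of 0.365 (0.261 to 0.509), and 0 counts in fibroblast nuclei of both libraries, which allows up to 7.08 CPM in Pink1 KO and 12.5 CPM in WT. It was found in 20 Pink1 KO and 23 WT members. Within cluster 4 it had 322 CPM in Pink1 KO and 819 CPM in WT nuclei, a ratio of 0.393 (0.236 to 0.642), and its ratio ran from 0.239 to 0.450 under the alternatives. In cluster 3 it had 15 Pink1 KO and 3 WT counts, a ratio of 2.29 (0.647 to 12.3). Exoc2, a subunit of the exocyst that docks secretory vesicles, had 21 Pink1 KO and 31 WT counts, a ratio of 0.322 (0.176 to 0.579), 1.05 (0.528 to 2.17) in fibroblast nuclei, and 0.211 without members that held mural UMIs.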

How the data were processed

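Sorted, SYTOX Green-stained nuclei went into 10x Genomics 3' libraries, per the labels' protocols. The values are raw UMI counts as deposited, written by Cell Ranger 6.1.2 per the file headers. The submitters' processing notes name mm10 and GRCm38. Whether introns or strand were used in counting is not stated there. Counts were summed over the nuclei of a group, scaled to CPM over nuclear-encoded genes, and compared as Pink1 KO over WT with exact conditional binomial 95% intervals. Shares have Clopper-Pearson intervals. Log2 ratios had 0.5 added to each count. On simulated data of these depths, the interval step was checked before use. Clusters used Scanpy 1.11.5 (1000 variable genes, 15 components, 15 neighbours, Leiden resolution 0.5). Doublets were left in, and the highest Scrublet scores, 0.8% per 1000 barcodes, were removed as an alternative. Scaling factors by TMM came from edgeR 4.0.16.

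The members and the 27 gene lists were chosen with earlier results of these data known. Named genes were the 12 highest and 12 lowest by the bound nearest 1 among genes with at least 50 counts (mitochondrial, Xist, Y-linked, immunoglobulin, hemoglobin, rule and clone-named genes left out), members of the lists, and the 15 genes that most separated members. Gene coordinates came from GENCODE M21 (GRCm38), where 99.6% of gene IDs matched, and promoter windows from RefSeq GRCm38.p6. With PCR-amplified libraries of pooled mice, intervals do not cover the spread between mice. The Pink1 KO library had 22446326 UMIs in 12230 barcodes and the WT library 16997995 UMIs in 8924. Some genes are not reported here.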

Additional observations from a re-analysis of the deposited data

Results flagged for a closer look

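Some genes lay at least 1.5-fold lower in Pink1 KO smooth muscle nuclei and at least 1.5-fold higher in another group of nuclei, or the reverse, with both intervals leaving out 1. The difference between the groups was not tested. Ccn2 had a ratio of 0.563 in smooth muscle, 1.92 (1.57 to 2.37) in fibroblast and 3.98 (2.31 to 7.35) in epithelial nuclei. Atf3 had 0.475 in smooth muscle, where 1 nucleus held 76.5% of the 17 WT counts and the ratio without it was 1.99 (0.650 to 8.14), and 4.90 (3.51 to 7.02) in epithelial nuclei, where it had 343 Pink1 KO and 39 WT counts. Hspa1a, an inducible heat shock protein, had 2.66 in smooth muscle (28 Pink1 KO and 5 WT counts) and 0.398 (0.158 to 0.964) in epithelial nuclei.

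The rest are genes known from the epithelium. Saa1 had 0.164 in smooth muscle, 3.01 (1.24 to 8.82) in fibroblast nuclei, 20.2 (3.47 to 814) in interstitial cells of Cajal and 1.71 (1.59 to 1.84) in epithelial nuclei. Lypd8 had 0.431 in smooth muscle, 1.93 (1.14 to 3.41) in fibroblast nuclei and 2.11 (1.33 to 3.49) in interstitial cells of Cajal. Chgb had 0.124 in smooth muscle, where the ratio was 3.58 (1.08 to 18.6) without the nucleus that held 96.6% of the WT counts, and 8.47 (1.30 to 357) in fibroblast nuclei, from 15 Pink1 KO counts and 1 WT count. Prdx6, Muc3 and Epcam had 0.341, 0.368 and 0.617 in smooth muscle, and 1.98 (1.19 to 3.5), 3.37 (1.20 to 13.1) and 1.77 (1.10 to 3.0) in interstitial cells of Cajal. In interstitial cells of Cajal the epithelial markers summed to 4466 CPM in Pink1 KO and 3301 CPM in WT, a ratio of 1.35, against 0.745 in smooth muscle.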

How the results depend on the processing

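The 13 alternatives planned and 3 added after seeing the data (members with epithelial UMIs left out, cluster 0 left out, totals without the ribosomal RNA loci Gm42418 and AY036118) moved the median log2 ratio of all genes to between -0.02 and 0.05. The share ratio of muscle nuclei was 2.04 with the stricter member rule and 2.13 among members with 0 Muc2 UMIs, within a range of 1.43 to 2.13. The percentage of genes at least 1.5-fold higher was 13.5 with thinned nuclei and 17.6 at a minimum of 10 counts, and that of lower genes 16.0 at 10 counts and 3.31 at 100 counts. The immediate early median ran from 1.38 with the looser rule to 2.52 as a mean of the nuclei's own CPM, and the contractile median from -0.12 to 0.17. Among the genes of the lists and the named genes past 1.5-fold whose interval left out 1, the direction turned round for Lypd8 (1.04 with the stricter barcode filter, 1.14 without cluster 0), Rbbp8 (1.01 with the highest doublet scores removed), Itga8 (1.13) and Nr1d2 (1.10) with thinned nuclei, Prdx6 (1.18) and Epcam (1.31) without epithelial UMIs, and Epcam (1.29) without cluster 0. Of the 43 genes past 1.5-fold whose interval held 1, 15 crossed 1 under an alternative, among them Ednrb (3.38 with the stricter member rule), Bmp2 (2.39 without epithelial UMIs), Col4a5 (0.793 without mural UMIs), Hand2 (0.902 with thinned nuclei) and Kcnj8 (0.930 with 0 Muc2 UMIs). Leaving out the 1 nucleus that held over 30% of a gene's counts in a library, a choice made after seeing the data, turned Chgb to 3.58 and Atf3 to 1.99 among genes past 1.5-fold whose interval left out 1. The cause was not tested. At a coarser resolution of 0.25, each cluster kept at least 95.5% of its nuclei together, but at a finer resolution of 1, with 8 clusters, clusters 1 and 2 kept 55.8% and 56.7%. No paired analysis was possible because each genotype has 1 library.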

Other observations

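Transcripts of 4 Y-linked genes (Uty, Kdm5d, Eif2s3y and Ddx3y), looked at after their values were seen, summed to 693 CPM in Pink1 KO and 1283 CPM in WT smooth muscle nuclei, a ratio of 0.540 (0.474 to 0.616). The ratio was 0.516 (0.438 to 0.606) in fibroblast nuclei, 0.460 (0.362 to 0.585) in interstitial cells of Cajal and 0.514 (0.500 to 0.528) in epithelial nuclei. Xist had 3 counts in Pink1 KO and 0 counts in WT smooth muscle nuclei. All mice are labelled male, and the cause was not tested. Gm42418 and AY036118, which overlap ribosomal RNA, summed to 10841 CPM in Pink1 KO and 21711 CPM in WT smooth muscle nuclei, a ratio of 0.499 (0.484 to 0.516), and had ratios of 0.598 to 0.70 in the other 3 groups.

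Txnip, a regulator of glucose uptake that was followed beside the immediate early genes, was found at 500 UMIs in 38.5% (33.7 to 43.5) of Pink1 KO and 13.0% (8.42 to 18.9) of WT smooth muscle nuclei. In fibroblast nuclei the shares were 28.8% and 22.7%, and in epithelial nuclei 52.9% and 24.2%. Unthinned, 72.2% of Pink1 KO and 36.7% of WT smooth muscle nuclei held a Txnip UMI.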
